A study of Mus musculus with 17 samples.

Results

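Cells sorted for Lrig1 were compared with cells sorted for Lgr5 from the epidermis of control mice, to describe how these 2 stem cell populations differ in expressed genes. The comparison used 5 of the 17 libraries of the series, 2 from control Lrig1 cells (WT Lrig1 replicates 1 and 2) and 3 from control Lgr5 cells (WT Lgr5 replicates 1, 2 and 3), chosen by their labels alone. A positive log2 fold change means a higher level in Lrig1 cells throughout. Both groups came from C57BL/6 mice aged 3 months that carried an EGFP-CreERT2 cassette at the Lrig1 or the Lgr5 gene and 1 floxed copy of Pelo (Pelo fl/+, labelled WT). All mice had received 4-hydroxytamoxifen, so the controls also carried an active Cre and 1 Pelo allele open to deletion. From each, 1000 GFP-positive cells were sorted and turned into full-length RNA-seq libraries. The sort therefore follows the cassette at the marker gene itself. Whether replicates are separate animals is not stated in the labels, and p-values measure only the spread between these libraries. The series also holds libraries of Pelo fl/fl mice, called Pelo -/- by the submitters. Their 3 Lrig1 and 3 Lgr5 libraries are used below as a second comparison of the same populations, made in the same fit.

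Hair follicles hold several pools of stem cells. Lrig1, a transmembrane protein that restrains growth factor receptors, marks cells of the upper follicle near the sebaceous gland, which feed the gland, the duct and the mouth of the follicle. Lgr5, a receptor for R-spondins that strengthens Wnt signalling, marks cells of the lower bulge and the hair germ, from which a new hair is built at each growth phase. Transcription factors such as Lhx2 and Sox9 and secreted antagonists of Wnt and BMP signals are known features of the lower pool.

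Total counts were 21694454 and 26827421 in the Lrig1 libraries and 9647507 to 11261870 in the Lgr5 libraries, so depth also separated the groups. WT Lgr5 replicate 3 stood apart: 33.6% of its counts fell on predicted genes, against 16.8% to 24.8% in the other 4 libraries, and its scaling factor (TMM) was 1.91 against 0.770 to 1.39. Genes of olfactory and vomeronasal receptors, a class best known from sensory tissue and looked up after the values were seen, had 1077 CPM (counts normalized to library size, here without TMM) in that library. They had 151 and 509 in the other Lgr5 libraries and 40.8 and 97.0 in the Lrig1 libraries. Of 475 such genes tested, 452 were lower in value in Lrig1 cells (median log2 fold change -2.73), 3 were called lower and 1 higher. The part of these features in the results below was not tested. In bulk libraries fewer cells of a type and less RNA per cell cannot be told apart.

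The 2 genes that name the sorts followed their labels in value, but neither passed the test. Lgr5 (ENSMUSG00000020140.15, chromosome 10, 115450311 to 115587780, GRCm38) stood at 28.0 and 8.46 CPM (scaled by TMM here and below) in the Lrig1 libraries. It stood at 276, 570 and 364 CPM in the Lgr5 libraries, and the groups did not overlap (log2 fold change -4.47 ± 1.53, SE, as for every ± after a fold change below; edgeR adjusted p = 0.0809). Lrig1 (ENSMUSG00000030029.14, chromosome 6, 94604529 to 94700158) stood at 39.2 and 41.7 CPM against 18.1, 10.4 and 15.8 CPM, also without overlap (1.46 ± 0.54, adjusted p = 0.0810 in edgeR). Cd34, a surface marker of the bulge that was looked up after its values were seen, had 28.3 and 44.6 CPM in Lrig1 cells against 232, 195 and 266 CPM (-2.66 ± 0.95, adjusted p = 0.0803 in edgeR). Keratinocyte transcripts were present in both groups, at unequal levels. The 14 keratinocyte markers summed to 28560 and 28230 CPM in Lrig1 and 5590 to 8260 CPM in Lgr5 libraries, with 9 called higher. Trp63 and Krt15 were named after their values were seen. The lineage factor Trp63 had group means of 1129 CPM in Lrig1 and 824 CPM in Lgr5 cells. The basal keratin Krt15, also used as a bulge marker, had 6925 and 3630 CPM, so it was higher in value in Lrig1 cells, unlike Cd34. Neither Trp63 nor Krt15 was called (edgeR adjusted p = 0.377 and 0.108).

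Of 30405 genes tested, edgeR's quasi-likelihood test called 3369 (11.1%) at an adjusted p under 0.05, 2765 higher in Lrig1 cells (9.09% of those tested) and 604 lower (1.99%). The balance of directions depended on scaling and on low genes. The median log2 fold change over all genes was -0.99, and it moved by over 0.1 to -1.36 when libraries were scaled by RLE size factors, with 69.1% of calls higher in place of 82.1%. Among the 10809 genes with a mean of at least 5 CPM the median was -0.05, and 1763 were called higher (16.3%) and 1392 lower (12.9%). Of the 50 gene lists used below, the side with more calls turned in 8 with DESeq2 (the Wnt, Notch, EGF, receptor kinase, integrin, basement membrane, matrix protease and T-cell lists), in 7 at that minimum and in 3 with RLE size factors. Lower calls were over 1.5 times those given below in 42 lists with DESeq2 and in 23 at that minimum. All 50 lists were chosen with earlier results of these data known, so their directions are not independent evidence. The shares over all genes tested given below, 9.09% and 1.99%, include low genes and are smaller than those at that minimum. Calls in the 2 directions differed in level: the genes called higher had a median of 81.8 CPM in Lrig1 cells, and those called lower had a median of 11.4 CPM in Lgr5 cells. Calls rested more on the 2 Lrig1 libraries than on the others, since 1892 higher and 240 lower were called without WT Lrig1 replicate 1 and 1228 and 66 without replicate 2. In such fits the remaining Lrig1 library is assumed to vary like the other groups. Groups that do not overlap in CPM are common here, 19.7% of all genes tested in the higher and 25.4% in the lower direction, so a lack of overlap alone says little. In all, 1125 of the higher and 41 of the lower calls were kept without each library in turn. Genes described singly below are among these unless the loss of a call is given.

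**Figure D1:**
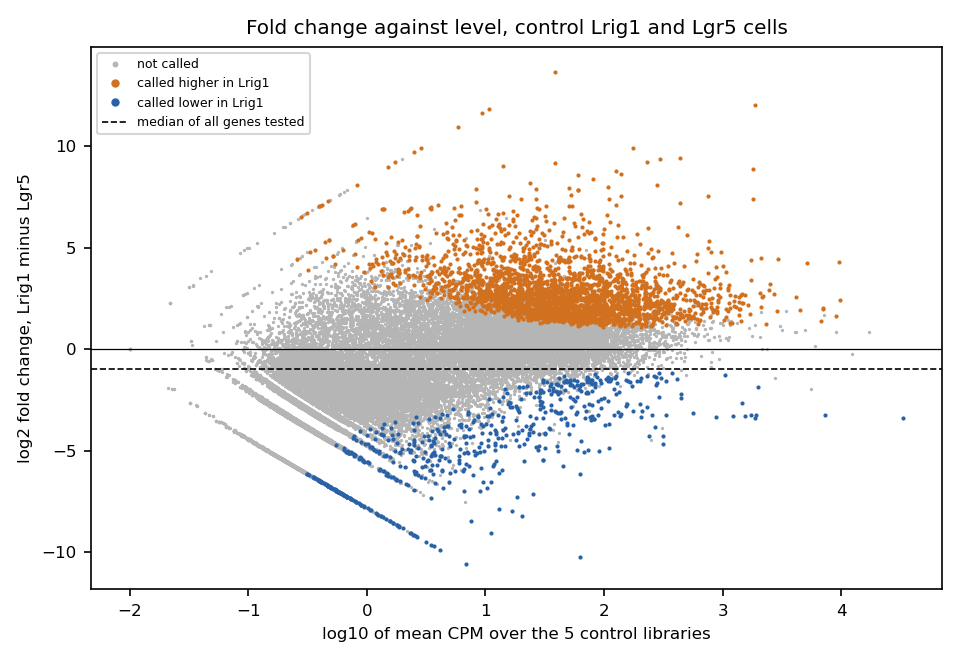
Each point is 1 gene, with the log10 of its mean CPM over the 5 control libraries on the x axis and its log2 fold change, Lrig1 minus Lgr5, on the y axis; orange and blue mark genes called higher and lower in Lrig1 cells by edgeR, and the dashed line is the median of all genes at -0.99. Higher calls lie mostly at high levels, with a median of 81.8 CPM in Lrig1 cells, and many lower calls lie at low levels, where lines of points come from genes with few counts.

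Among genes that met the naming rule, Ly6d and Ly6a had the largest fold changes in the higher direction. Both encode surface proteins of the Ly6 family, small anchored glycoproteins often used to sort stem and progenitor cells. Ly6d (ENSMUSG00000034634.7, chromosome 15, 74762056 to 74763620), a small glycoprotein of the keratinocyte surface, had 4237 and 5196 CPM in the Lrig1 libraries against 1.15, 1.60 and 0.601 CPM in the Lgr5 libraries (12.04 ± 0.98, adjusted p = 1.73e-07 in edgeR). Ly6a, known as Sca-1 and used to set the upper follicle apart from the bulge, had 499 and 371 CPM against 0.135, 0.449 and 0.711 CPM (9.92 ± 0.65, adjusted p = 7.07e-10 in edgeR). Both genes were close to absent from every Lgr5 library, WT Lgr5 replicate 3 included. Of 24 Ly6 family genes tested, 8 were called higher and 0 lower, with a median of 1.40 beside -0.99 for all genes. Where a list here or below has 0 calls in the lower direction, edgeR gave 0 to 4 of its members an unadjusted p under 0.05 in that direction, and DESeq2 and limma-voom called 0 to 8 and 0 to 2. The Ly6 genes called included Ly6e at 6.13 ± 0.76, Ly6c1 at 5.22 ± 0.69 and Ly6g6c at 8.10 ± 1.10. Members of such families, and of the histocompatibility, Skint, Oas and Gstm families below, can share reads, as can Ccl27a, ubiquitin and ribosomal protein genes with their copies, and the authors' treatment of shared reads is not stated in the labels.

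**Figure D2:**
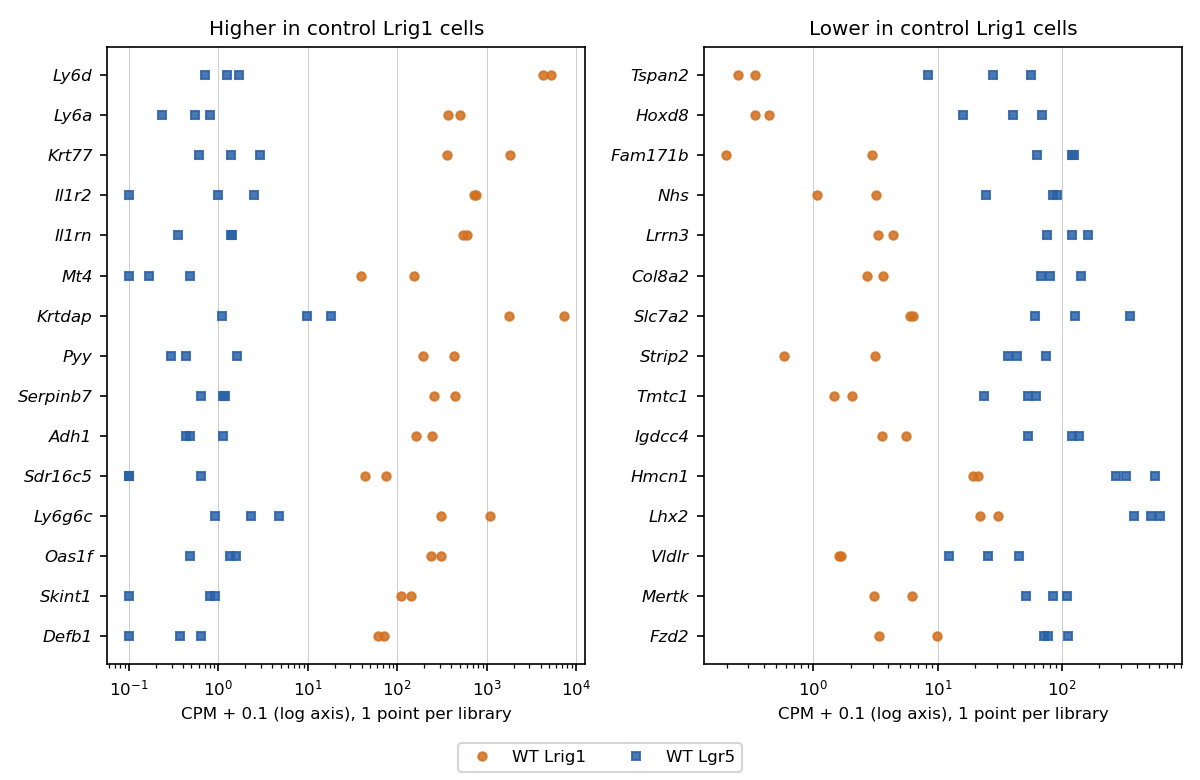
CPM plus 0.1 on a log axis for the 15 called genes per direction with the largest fold change among those that met the naming rule, 1 point per library, with orange circles for the 2 WT Lrig1 and blue squares for the 3 WT Lgr5 libraries. Groups do not overlap in any gene shown, as the rule requires, and Ly6d lies at 4237 and 5196 CPM in Lrig1 cells against at most 1.60 CPM in Lgr5 cells.

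Genes of interleukin-1 control followed. Il1rn (ENSMUSG00000026981.15, chromosome 2, 24336853 to 24351494), the secreted antagonist of the interleukin-1 receptor, had 605 and 540 CPM in Lrig1 cells against 1.28, 0.256 and 1.31 CPM in Lgr5 cells (9.22 ± 0.74, adjusted p = 4.59e-08 in edgeR). Il1r2, a decoy receptor that binds interleukin-1 without signalling, had 729 and 754 CPM against 0.879, 0 and 2.41 CPM (9.37 ± 1.00, adjusted p = 4.44e-06 in edgeR). The 2 Lrig1 libraries agreed closely for both genes, and no Lgr5 library passed 2.41 CPM in either. Receptor chains for the interleukin-20 family differed too, Il20ra by 7.86 ± 0.65 and Il20rb by 2.99 ± 0.42, as did the ligand Il1f9, also called IL-36 gamma, by 5.41 ± 0.84. Of 24 genes of these families 12 were called higher and 0 lower (median 1.76), and 7 were called without WT Lrig1 replicate 2.

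Other defence genes were higher in the same cells. Of 29 chemokine and defence peptide genes 9 were called higher and 0 lower (median 1.12). Pyy, a peptide hormone gene placed in that list, had 192 and 435 CPM against 0.338, 0.192 and 1.53 CPM (8.78 ± 0.76, adjusted p = 1.57e-07 in edgeR). Defb1, a beta-defensin, had 71.1 and 61.0 CPM against 0.541, 0 and 0.273 CPM (7.90 ± 0.84, adjusted p = 1.36e-06 in edgeR). The chemokine Ccl27a, which draws T cells to skin, was abundant in both groups, at 7464 and 9158 CPM against 2043, 1491 and 608 CPM (2.59 ± 0.51, adjusted p = 0.000954 in edgeR). Skint1, a keratinocyte surface gene needed by a class of epidermal T cells, differed by 7.93 ± 0.93 and the oligoadenylate synthetase family gene Oas1f by 8.01 ± 0.66. Of 36 interferon response genes 7 were called higher and 0 lower (median 0.25), led by the interferon-gamma receptor chain Ifngr1 at 5.54 ± 0.50 and the antiviral membrane protein Ifitm3 at 4.93 ± 0.57, and 4 were called without WT Lrig1 replicate 2.

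Antigen presentation separated the populations across most of its class I genes. Of 24 class I genes 17 were called higher and 0 lower, with a median of 2.92. H2-D1, a classical class I heavy chain, had 1391 and 1341 CPM in Lrig1 cells against 151, 177 and 86.9 CPM in Lgr5 cells (3.30 ± 0.38, adjusted p = 3.01e-06 in edgeR). The nonclassical heavy chains H2-T22, H2-Q6 and H2-Q7 differed by 5.25 ± 0.53, 5.48 ± 0.56 and 5.05 ± 0.52. Of 12 class II genes 4 were called higher, among them Cd74, the invariant chain that guides class II molecules, at 35.4 and 123 CPM against 0.744, 0.577 and 1.09 CPM (6.60 ± 0.61, adjusted p = 1.73e-07 in edgeR). H2-Aa had 26.4 and 39.5 CPM against at most 1.26 CPM (5.84 ± 0.79). H2-DMa was called as well, and H2-Eb1 lost its call without WT Lrig1 replicate 1 (edgeR adjusted p = 0.192) and without WT Lgr5 replicate 1 (0.0536). Antigen-presenting Langerhans cells also express class II genes, and their defining marker Cd207 averaged 1.4 CPM in Lrig1 and 1.3 CPM in Lgr5 cells. The 17 Langerhans cell and macrophage markers summed to 152 and 151 CPM in the Lrig1 libraries and 62.1 to 129 CPM in the Lgr5 libraries, mostly through Epcam, which keratinocytes express too. None of them was called by edgeR (1 higher and 1 lower at an unadjusted p under 0.05), while DESeq2 called 4 lower and limma-voom 1, and Lyz2 was at 0 in both Lrig1 libraries.

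Keratins of the basal and the differentiating layers were both higher in Lrig1 cells. Krt14, the main basal keratin, had 7995 and 5777 CPM against 355, 461 and 140 CPM (4.43 ± 0.48, adjusted p = 1.36e-06 in edgeR). Krt10, a keratin of cells that have left the basal layer, had 822 and 2747 CPM against 23.3, 107 and 36.5 CPM (5.01 ± 0.65, adjusted p = 1.65e-05 in edgeR). Its partner Krt1 had 598 and 1580 CPM against 1.62, 15.6 and 4.92 CPM (7.21 ± 0.89), and Krt77 had 356 and 1808 CPM against 1.28, 0.513 and 2.84 CPM (9.43 ± 1.31). WT Lrig1 replicate 2 was the higher Lrig1 library for these 3 suprabasal keratins and the lower one for Krt14. Of 24 epidermal keratins 8 were called higher and 1 lower (median 1.37). The lower one was Krt24, at 15.3 and 8.66 CPM against 210, 167 and 107 CPM (-3.75 ± 0.89), which was not called without WT Lrig1 replicate 1 or 2 (edgeR adjusted p = 0.0839 and 0.189). None of 20 hair shaft and root sheath keratins was called by edgeR, with 1 higher and 3 lower at an unadjusted p under 0.05, while DESeq2 called 4 lower and limma-voom 2 lower and 1 higher.

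Calls among genes of the cornified layer and of barrier lipids were mostly higher. Krtdap, a secreted protein of differentiating keratinocytes, had 1768 and 7242 CPM against 18.1, 9.74 and 0.984 CPM (8.88 ± 1.10, adjusted p = 2.91e-05 in edgeR). Of 36 cornified envelope and S100 genes 11 were called higher and 2 lower (median 0.40), and 5 were called higher without WT Lrig1 replicate 2. Among them were S100a14 at 2.85 ± 0.47 and S100a11 at 3.18 ± 0.53, both calcium-binding proteins, and the crosslinking enzyme Tgm3 at 3.55 ± 0.81. The lower ones were Calml3 and S100a4, and neither was called without WT Lrig1 replicate 1 (edgeR adjusted p = 0.239 and 0.215) or replicate 2 (0.240 and 0.121); Calml3 was not called without WT Lgr5 replicate 2 (0.0746), nor S100a4 without WT Lgr5 replicate 3 (0.0872). Of 31 barrier lipid genes 10 were called higher and 1 lower (median 1.66). Casp14, a caspase of the cornified layer, differed by 7.40 ± 0.84, the ceramidase Acer1 by 6.39 ± 0.75, the lipase cofactor Abhd5 by 5.45 ± 0.66 and the lipase Lipm by 6.08 ± 0.76. The lower one was the sphingomyelinase gene Smpd3 at -3.58 ± 1.18 (edgeR adjusted p = 0.0498), not called without WT Lrig1 replicates 1 or 2 (0.159 and 0.353) or WT Lgr5 replicates 1 or 3 (0.0693 and 0.0912).

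Proteases, their inhibitors and detoxifying enzymes formed further groups with no lower calls. Of 34 kallikreins, proteases and inhibitors 17 were called higher (median 1.95), and 9 without WT Lrig1 replicate 2. Serpinb2, an inhibitor of plasminogen activators, had 2087 and 1632 CPM against 12.6, 10.8 and 6.23 CPM (7.55 ± 0.86, adjusted p = 7.14e-06 in edgeR). Serpinb7, a serpin of the cornified layer, had 437 and 259 CPM against 1.01, 1.09 and 0.547 CPM (8.62 ± 1.03, adjusted p = 1.37e-05 in edgeR). The kallikrein Klk11, a secreted serine protease, differed by 6.54 ± 0.70. Of 42 glutathione and xenobiotic genes 20 were called higher and 0 lower (median 1.83), with 13 without WT Lgr5 replicate 3 and 11 without WT Lrig1 replicate 2. Mgst3, a microsomal glutathione transferase, had 475 and 454 CPM against 6.89, 16.7 and 3.33 CPM (5.69 ± 0.63, adjusted p = 2.51e-06 in edgeR). Adh1, an alcohol dehydrogenase that also acts on retinol, differed by 8.38 ± 0.94, and Sdr16c5, a retinol dehydrogenase, by 8.20 ± 1.48. Of 31 prostaglandin and eicosanoid genes 9 were called higher and 1 lower (median 0.55), led by the cyclooxygenase Ptgs1 at 6.22 ± 0.63 and the prostaglandin D synthase Hpgds at 5.72 ± 0.80. The lower one, the lipoxygenase Alox8, was not called without WT Lrig1 replicate 1 or 2 (edgeR adjusted p = 0.0944 and 0.136). Clca3a2, of the calcium-activated chloride channel regulator family, had 4514 and 4380 CPM against 19.9, 50.4 and 8.53 CPM (7.40 ± 0.64, adjusted p = 8.71e-08 in edgeR), with Lrig1 libraries that differed little.

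Members of a list of upper follicle and isthmus markers were called in both directions, more of them higher. Of 20 upper follicle and isthmus markers 8 were called higher and 2 lower (median 1.92), and 5 were called higher without WT Lrig1 replicate 2. Gata6, a transcription factor of the sebaceous duct lineage, had 51.7 and 42.8 CPM against 2.91, 3.27 and 6.07 CPM (3.53 ± 0.55, adjusted p = 8.17e-05 in edgeR). Plet1, the antigen that marks the isthmus, had 79.9 and 41.9 CPM against 9.19, 4.93 and 3.01 CPM (3.42 ± 0.60, adjusted p = 0.000293 in edgeR). Krt79, a keratin of the upper follicle canal, had 174 and 298 CPM against 4.46, 4.999 and 9.13 CPM (5.25 ± 1.17, adjusted p = 0.00783 in edgeR). The beta-defensin Defb6 had 138 and 136 CPM against 0.135, 0 and 5.14 CPM (6.25 ± 1.36). Fst, an antagonist of activins, was lower by -1.55 ± 0.43 and Cd200, an immune-regulatory surface protein, by -1.56 ± 0.46. Both are also known from the bulge, so they are not specific to the upper follicle. Fst was not called without WT Lrig1 replicate 1 or 2 (edgeR adjusted p = 0.146 and 0.299), nor Cd200 when WT Lrig1 replicate 1 (0.337) or WT Lgr5 replicate 2 (0.109) was left out. Of 26 sebaceous gland genes 4 were called higher and 0 lower (median 0.82), with 1 called without WT Lrig1 replicate 2 and 2 without WT Lgr5 replicate 1. Apoc1, an apolipoprotein, kept its call at 548 and 664 CPM against 55.2, 14.2 and 7.54 CPM (4.57 ± 0.61). Scd1, Plin2 and Soat1, which act in lipid desaturation, lipid droplets and cholesterol esters, were not called without WT Lrig1 replicate 2 (edgeR adjusted p = 0.0948, 0.470 and 0.799). Plin2 was also not called without WT Lgr5 replicates 1 or 3 (0.0590 and 0.0571), nor Soat1 without WT Lgr5 replicates 1 or 2 (0.0746 and 0.0597).

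**Figure D3:**
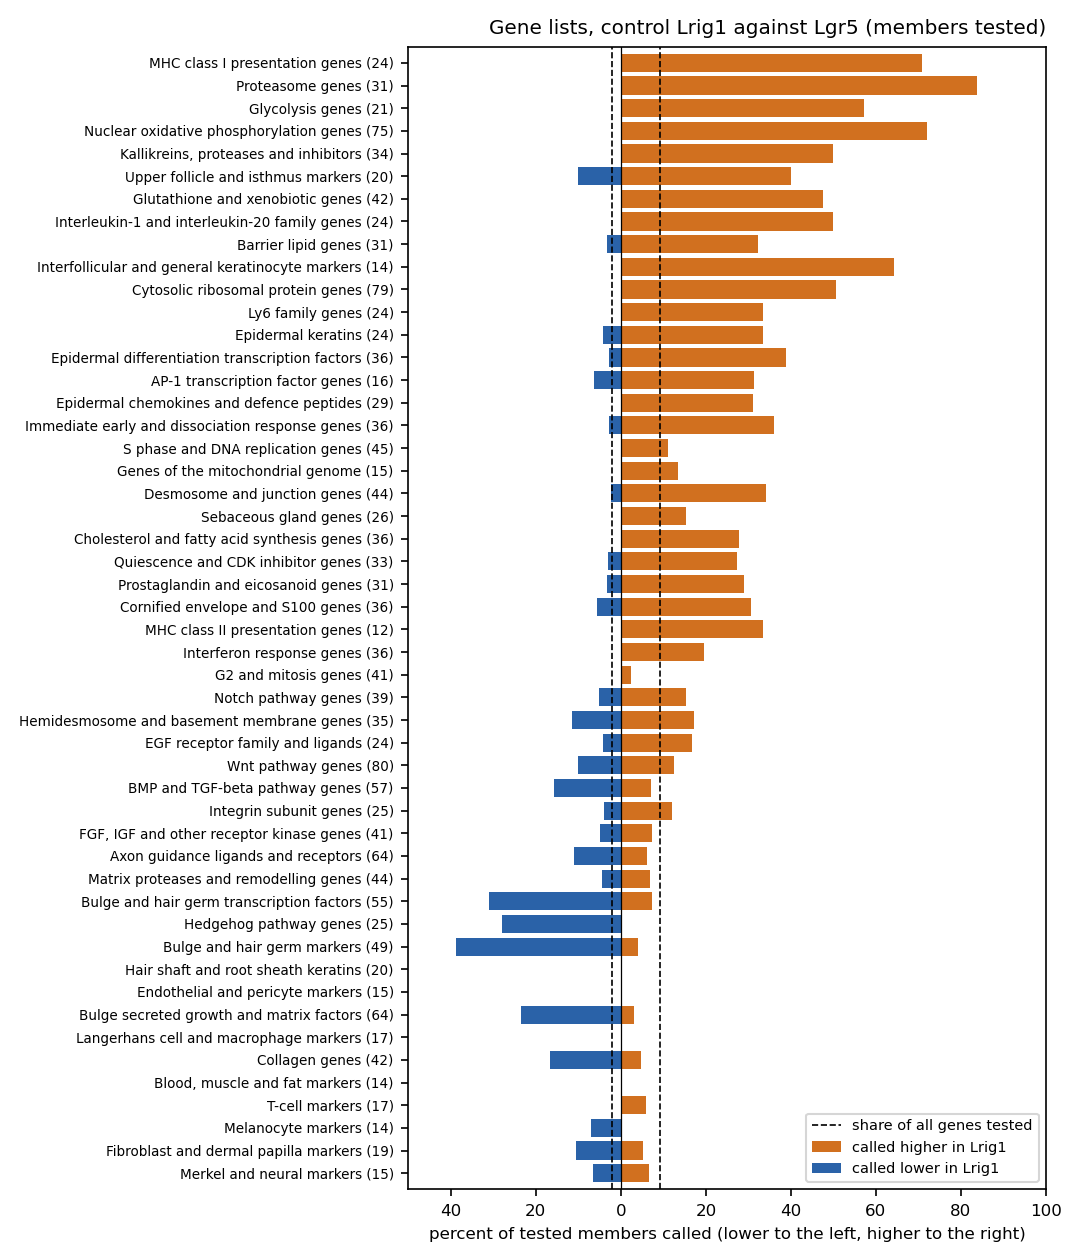
Percent of tested members called higher (orange, to the right) and lower (blue, to the left) in control Lrig1 cells for 50 gene lists, ordered by median fold change, with the number of members tested in brackets; dashed lines give the shares over all genes tested, 9.09% and 1.99%. Lists of immune, barrier, protease and metabolic genes lie to the right, and those of the bulge, Hedgehog signalling and collagens to the left.

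Transcription factors of 2 lists were called mostly in opposite directions. Of 36 factors of epidermal differentiation 14 were called higher and 1 lower (median 1.26), and 7 were called higher without WT Lrig1 replicate 2. Gata3, which governs barrier formation and the inner root sheath, had 1290 and 1476 CPM against 152, 194 and 92.2 CPM (3.24 ± 0.40, adjusted p = 5.75e-06 in edgeR). Ets2, an ETS-family factor, differed by 2.02 ± 0.34. The lower one, the basal zinc finger gene Bnc1, was not called without WT Lrig1 replicate 2 (edgeR adjusted p = 0.211). Of 55 factors of the bulge and hair germ 17 were called lower and 4 higher (median -1.58), beside a background of 1.99% lower. At a minimum of 5 CPM 22 were called lower, beside 12.9% of all genes at that level. Lhx2 (ENSMUSG00000000247.11, chromosome 2, 38339281 to 38369733), a LIM homeodomain factor that keeps follicle stem cells in place, had 30.6 and 21.6 CPM in Lrig1 cells against 518, 618 and 381 CPM in Lgr5 cells (-4.27 ± 0.69, adjusted p = 0.000167 in edgeR). Every Lgr5 library lay far above both Lrig1 libraries. The homeobox gene Hoxd8, which is outside the list of bulge factors, had 0.240 and 0.339 CPM against 15.9, 69.1 and 40.3 CPM (-7.13 ± 1.41, adjusted p = 0.00138 in edgeR).

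Lower calls of the bulge factor list other than Lhx2 were less secure. Sox9, required for the bulge to form, had 146 and 138 CPM against 587, 651 and 709 CPM (-2.20 ± 0.47, adjusted p = 0.00208 in edgeR), with tight groups that do not overlap. Its call was nevertheless lost without WT Lrig1 replicate 1 or 2 (edgeR adjusted p = 0.0705 and 0.0709). Runx1, active as hair germ cells start to divide, differed by -2.54 ± 0.60 and was not called without WT Lrig1 replicate 2 (edgeR adjusted p = 0.135). Tcf7l2, a nuclear partner of beta-catenin, differed by -1.67 ± 0.40 and was not called without replicate 1 or 2 (0.0920 and 0.229). For the list as a whole 4 and 1 lower calls were made without WT Lrig1 replicates 1 and 2. Among bulge factors 4 went the other way. Sox6, of the SRY-box family, had 101.3 and 53.1 CPM against 2.10, 5.96 and 4.05 CPM (4.25 ± 0.54), the nuclear factor I genes Nfia and Nfix differed by 2.54 ± 0.44 and 1.89 ± 0.43, and the forkhead gene Foxq1 by 3.92 ± 0.70. Nfix was not called without WT Lrig1 replicate 2 (edgeR adjusted p = 0.0518).

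The sequences upstream of leading genes in each direction are shown as examples of the promoters on the 2 sides of the comparison. For each, 250 bases before the RefSeq start site on GRCm38.p6 are printed 5′ to 3′ on the gene's own strand, taking the first RefSeq entry per symbol. Capitals mark matches, on either strand, to TATAAA (the core of a TATA box) or TGANTCA (the site bound by AP-1 factors); TAATTA, a core bound by homeodomain factors, was searched too, and no 1 of the 3 motifs contains another. The 3 genes higher in Lrig1 cells are leading genes with a TGANTCA match, and Lhx2 and Ptn are 2 leading genes lower in Lrig1 cells. The 2 sides were thus not chosen alike, and the printed windows are no comparison of motifs.
Krtdap chr7:30787655-30787904 (plus strand): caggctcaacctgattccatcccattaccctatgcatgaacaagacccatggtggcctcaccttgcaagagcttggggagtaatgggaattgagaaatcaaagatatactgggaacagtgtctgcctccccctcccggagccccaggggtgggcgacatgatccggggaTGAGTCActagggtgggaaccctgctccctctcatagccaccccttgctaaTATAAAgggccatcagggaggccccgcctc
Serpinb7 chr1:107422439-107422688 (plus strand): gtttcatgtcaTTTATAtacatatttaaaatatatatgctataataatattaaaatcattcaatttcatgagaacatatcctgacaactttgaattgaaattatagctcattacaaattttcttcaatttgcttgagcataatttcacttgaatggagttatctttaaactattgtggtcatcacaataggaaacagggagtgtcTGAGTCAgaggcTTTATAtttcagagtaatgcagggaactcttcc
Il1rn chr2:24336610-24336859 (plus strand): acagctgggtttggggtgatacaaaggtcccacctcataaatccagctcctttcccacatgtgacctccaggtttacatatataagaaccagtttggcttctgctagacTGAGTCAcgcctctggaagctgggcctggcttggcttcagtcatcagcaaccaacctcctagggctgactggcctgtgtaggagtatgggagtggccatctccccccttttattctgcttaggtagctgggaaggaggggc
Lhx2 chr2:38339031-38339280 (plus strand): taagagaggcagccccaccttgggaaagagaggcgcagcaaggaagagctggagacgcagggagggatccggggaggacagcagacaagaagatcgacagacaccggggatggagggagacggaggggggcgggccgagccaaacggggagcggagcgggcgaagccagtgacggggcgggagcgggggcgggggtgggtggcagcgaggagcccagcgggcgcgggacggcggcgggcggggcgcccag
Ptn chr6:36810180-36810429 (minus strand): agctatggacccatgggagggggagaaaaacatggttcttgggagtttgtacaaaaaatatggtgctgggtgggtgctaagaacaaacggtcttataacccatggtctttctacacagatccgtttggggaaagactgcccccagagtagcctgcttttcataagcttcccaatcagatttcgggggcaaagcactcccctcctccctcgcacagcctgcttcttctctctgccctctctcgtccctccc
In Krtdap a TATAAA begins 30 bases and a TGAGTCA 81 bases before the start site. In Serpinb7 a TATAAA on the other strand begins 33 bases and a TGAGTCA 45 bases before it, and another TATAAA lies 239 bases before it. Il1rn holds a TGANTCA match 141 bases before its start site and no TATAAA. The windows of Lhx2 and Ptn hold none of the 3. Of 23 leading higher genes 18 matched a window, 6 of these with TATAAA, 4 with TGANTCA and 0 with TAATTA. Of 23 leading lower genes 18 matched, 1 with TATAAA, 0 with TGANTCA and 2 with TAATTA. These shares do not carry over to all calls. TATAAA was present in 7.78% of the 1697 windows of genes called higher, 6.59% of the 364 of genes called lower and 9.90% of those of all genes tested, and TGANTCA in 5.48%, 5.22% and 5.92%. TAATTA was present in 2.30%, 3.57% and 3.61%. In the whole table of 27025 promoters the shares were 13%, 6.87% and 4.90% for the motifs in that order.

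Some secreted and matrix genes of the bulge were called lower in Lrig1 cells, and most of the list was not called. Ptn, a heparin-binding growth factor, had 402 and 307 CPM against 2461, 2454 and 1652 CPM (-2.63 ± 0.42, adjusted p = 9.97e-05 in edgeR). Hmcn1, a very large protein of the extracellular matrix, had 19.0 and 21.0 CPM against 271, 562 and 330 CPM (-4.28 ± 0.59, adjusted p = 1.79e-05 in edgeR). In both genes the Lrig1 libraries lay well below the lowest Lgr5 library. Of 64 secreted growth and matrix factors of the bulge 15 were called lower, 2 higher and 47 neither (median -1.73), and 8 and 3 were called lower without WT Lrig1 replicates 1 and 2. The 2 higher were Igfbp3, which binds insulin-like growth factors, at 336 and 314 CPM against 41.9, 52.4 and 28.9 CPM (2.98 ± 0.43), and the matrix signal Ccn1 at 2.28 ± 0.48, not called without WT Lrig1 replicate 1 (edgeR adjusted p = 0.0522). Its relative Ccn2 differed in the opposite direction, with 159 and 95.8 CPM against 638, 461 and 895 CPM (-2.38 ± 0.45), and was not called without WT Lrig1 replicate 2 (0.0661).

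Of 49 bulge and hair germ markers, a list that partly overlaps the ones above, 19 were called lower and 2 higher (median -1.63). Like the other lists, this list was drawn up with earlier results of these libraries known, so its direction is not independent evidence. Without WT Lrig1 replicates 1 and 2 the lower calls numbered 8 and 6. Of 42 collagen genes 7 were called lower and 2 higher (median -1.78), with 3 lower without either Lrig1 library. Col8a2, a short-chain collagen, had 3.54 and 2.61 CPM against 68.1, 80.0 and 142 CPM (-4.98 ± 0.83, adjusted p = 0.000211 in edgeR), and Col5a2, a fibrillar collagen, had 0.120 and 0.193 CPM against 18.9, 18.0 and 10.1 CPM (-6.57 ± 1.16, adjusted p = 0.000329 in edgeR). Col23a1, a transmembrane collagen, was higher by 2.46 ± 0.54. Further leading lower genes were the tetraspanin Tspan2, at 0.240 and 0.145 CPM against 27.6, 56.5 and 8.26 CPM (-7.28 ± 1.33), the cationic amino acid transporter Slc7a2 (-4.88 ± 0.94), the lipoprotein receptor Vldlr (-4.17 ± 0.76) and Nt5e, which makes adenosine at the cell surface (-3.04 ± 0.58). The adhesion molecule Alcam had 47.5 and 36.0 CPM against 482, 516 and 184 CPM (-3.24 ± 0.50, adjusted p = 6.70e-05 in edgeR).

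Of 15 Wnt ligands tested, 5 were called, each higher in Lrig1 cells, and the 10 Frizzled receptors tested split, with 3 called lower and 2 higher. Wnt3 had 80.0 and 138 CPM against 1.08, 1.54 and 3.28 CPM (5.78 ± 0.57, adjusted p = 3.65e-07 in edgeR). Wnt3a had 26.5 and 13.9 CPM against 1.55, 0.513 and 0.929 CPM (4.33 ± 0.68, adjusted p = 8.99e-05 in edgeR), and Wnt4 had 46.6 and 40.8 CPM against 7.23, 9.61 and 2.84 CPM (2.73 ± 0.54, adjusted p = 0.00110 in edgeR). The other two ligands, named after their values were seen, were Wnt5a (2.85 ± 0.58) and Wnt10a (2.75 ± 0.67), the latter not called without WT Lrig1 replicate 1 (edgeR adjusted p = 0.132). Frizzled proteins are the receptors that bind these ligands. Fzd2 had 9.83 and 3.29 CPM against 71.0, 112 and 76.9 CPM (-3.72 ± 0.59, adjusted p = 9.61e-05 in edgeR), Fzd1 differed by -3.23 ± 0.52 and Fzd7 by -2.71 ± 0.53. Fzd6 (2.06 ± 0.47) and Fzd10 (3.31 ± 0.78), also named after their values were seen, were the receptors called higher. Without WT Lrig1 replicate 2 the calls of Fzd7, Fzd6 and Fzd10 were lost (edgeR adjusted p = 0.0506, 0.0647 and 0.299). Among inhibitors Dkk3, a secreted relative of the Dickkopf antagonists, was lower by -3.26 ± 0.58, and Apcdd1, which blocks Wnt at the cell surface, was higher by 5.13 ± 1.03. The kinase Gsk3b, which marks beta-catenin for destruction, was higher by 2.53 ± 0.43. Over the list 10 of 80 genes were called higher and 8 lower (median -0.51). These are 12.5% and 10% of the list, beside 9.09% and 1.99% of all genes tested. Among genes with a mean of at least 5 CPM the shares were 16.3% and 12.9%. Lower calls numbered 4 without either Lrig1 library, 5 without WT Lgr5 replicate 2 and 19 at a minimum of 5 CPM.

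**Figure D4:**
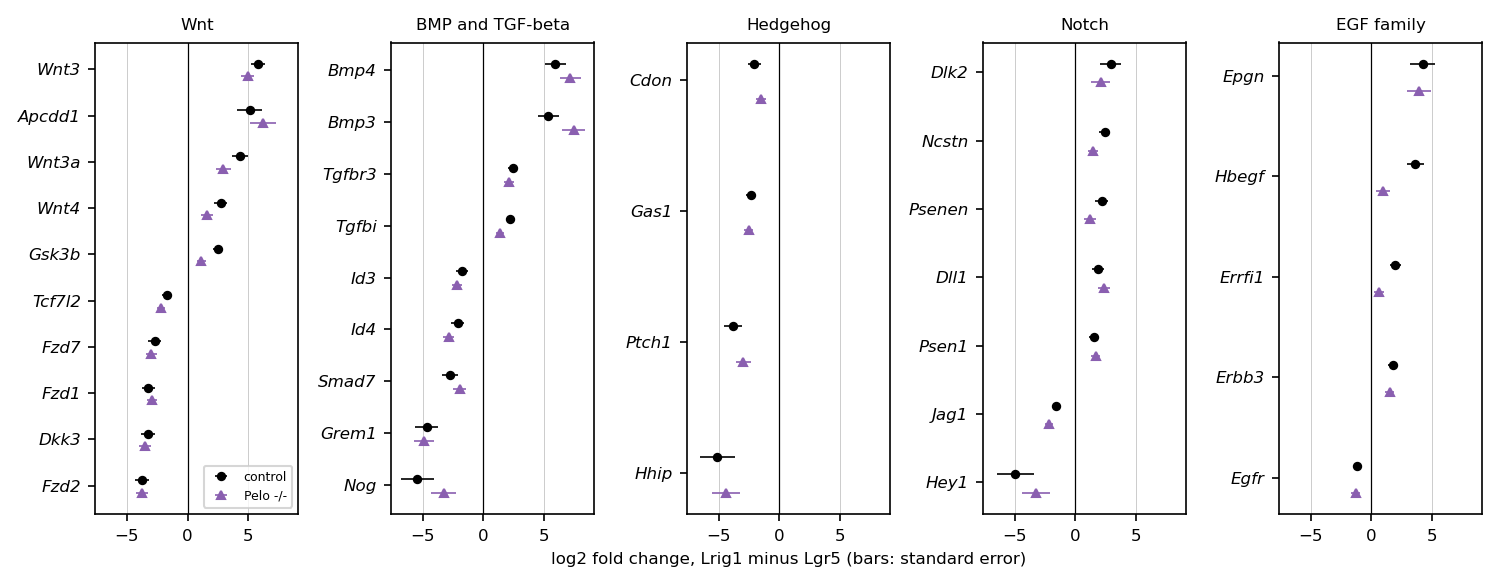
Log2 fold change, Lrig1 minus Lgr5, with its standard error as bars, of members called in control cells in 5 signalling lists (up to 5 per direction), with black circles for control and purple triangles for Pelo -/- cells. The Wnt and BMP ligands shown lie to the right of 0, and Fzd1, Fzd2, the BMP antagonists and the Hedgehog genes shown to the left, in both genotypes.

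Of 57 BMP and TGF-beta genes 4 were called higher, among them 2 ligands, and 9 lower, among them the antagonists Nog and Grem1 (median -0.66). These are 7.02% and 15.8% of the list, beside 9.09% and 1.99% of all genes tested. Among genes with a mean of at least 5 CPM the shares were 16.3% and 12.9%. Bmp4 had 35.0 and 34.6 CPM in Lrig1 cells against 0.338, 0.449 and 0.875 CPM in Lgr5 cells (5.94 ± 0.84, adjusted p = 3.27e-05 in edgeR), and Bmp3 had 112 and 59.9 CPM against 1.49, 0.192 and 4.54 CPM (5.36 ± 0.86, adjusted p = 0.000228 in edgeR). The co-receptor Tgfbr3 differed by 2.45 ± 0.41 and the matrix gene Tgfbi, induced by TGF-beta, by 2.22 ± 0.36. The antagonist Grem1 had 25.5 and 14.8 CPM against 399, 528 and 608 CPM (-4.67 ± 0.96, adjusted p = 0.00259 in edgeR), and Nog, another, had 0.599 and 1.64 CPM against 25.9, 65.2 and 60.1 CPM (-5.47 ± 1.36, adjusted p = 0.0107 in edgeR). The groups were far apart for both, yet Grem1 was not called without WT Lrig1 replicate 2 (0.0741), nor Nog without replicate 1 or 2 (0.139 and 0.0980). Id3 and Id4, which BMP signals induce, and the inhibitory Smad7 were lower by -1.75 ± 0.47, -2.12 ± 0.52 and -2.76 ± 0.65. Without WT Lrig1 replicate 2 none of these was called (edgeR adjusted p = 0.240, 0.239 and 0.0967), nor Id3 and Smad7 without replicate 1 (0.195 and 0.0969), nor Id3 without WT Lgr5 replicate 1 (0.0657). The lower calls numbered 2 and 0 without WT Lrig1 replicates 1 and 2, so the lower side of this list depended on both libraries, but 17 at a minimum of 5 CPM and 20 in DESeq2.

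Of 25 Hedgehog genes 7 were called lower and 0 higher (median -1.59), with 1 higher at an unadjusted p under 0.05, 0 in DESeq2 and 1 in limma-voom. Gas1, a co-receptor for Hedgehog ligands, had 97.0 and 71.9 CPM against 386, 462 and 437 CPM (-2.34 ± 0.42, adjusted p = 0.000393 in edgeR). Ptch1, the receptor and a target of the pathway, had 41.7 and 18.7 CPM against 394, 839 and 57.2 CPM (-3.83 ± 0.76, adjusted p = 0.00138 in edgeR). WT Lgr5 replicate 3 lay nearer to the Lrig1 libraries than to its own group for Ptch1, and Hhip (0.659 and 0.145 against 18.7, 19.4 and 3.61 CPM), which binds Hedgehog ligands, was also lowest there among Lgr5 libraries. Gas1 kept its call without each library. Ptch1 was not called without WT Lrig1 replicate 2 (edgeR adjusted p = 0.0729), nor Hhip without replicate 1 or 2 (0.0753 and 0.250). The list held 4 and 2 lower calls without WT Lrig1 replicates 1 and 2.

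Notch, EGF and receptor kinase genes were called in both directions. Of 39 Notch genes 6 were called higher and 2 lower (median -0.11), but 2 and 6 at a minimum of 5 CPM. Ncstn, a subunit of the gamma-secretase that cuts Notch, was higher by 2.42 ± 0.46 and was the member named here whose call held without each library. The ligand Jag1 had 147 and 160 CPM against 404, 499 and 446 CPM (-1.55 ± 0.38, adjusted p = 0.00742 in edgeR) and was not called without WT Lrig1 replicate 1 or 2 (0.177 and 0.129). Higher calls for Notch numbered 3 without WT Lgr5 replicate 1 or 3 and 2 without WT Lrig1 replicate 2. Of 24 genes of the EGF receptor family and its ligands 4 were called higher and 1 lower (median -0.45), but 3 and 5 at a minimum of 5 CPM and 2 higher without WT Lrig1 replicate 2. The ligand Hbegf had 42.4 and 50.6 CPM against 1.01, 8.33 and 1.75 CPM (3.65 ± 0.70, adjusted p = 0.000885 in edgeR), and Errfi1, a feedback inhibitor of the receptor, differed by 1.97 ± 0.45. Egfr itself was the lower one, at 117 and 64.7 CPM against 210, 221 and 178 CPM (-1.16 ± 0.38, adjusted p = 0.0489 in edgeR), and was not called without WT Lrig1 replicates 1 or 2 (0.132 and 0.470) or WT Lgr5 replicates 1 or 2 (0.0711 and 0.0777). Of 41 other receptor kinase genes 3 were called higher (7.32%, beside 9.09% of all genes tested) and 2 lower (4.88%, beside 1.99%). Among genes with a mean of at least 5 CPM the shares were 16.3% and 12.9%. The median of the list was -0.89, and its calls were 1 and 4 with RLE size factors. The lower ones held: Fgfr1, a fibroblast growth factor receptor, had 34.7 and 30.5 CPM against 294, 324 and 198 CPM (-3.06 ± 0.53, adjusted p = 0.000249 in edgeR), and Mertk, a receptor for the uptake of dying cells, had 3.00 and 6.14 CPM against 85.2, 110 and 51.5 CPM (-4.16 ± 0.61, adjusted p = 4.16e-05 in edgeR). The higher calls were 1 and 0 without WT Lrig1 replicates 1 and 2 and 5 without WT Lgr5 replicate 3.

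Axon guidance molecules, which also steer cell contacts in skin, were called in both directions, 4 higher and 7 lower of 64 (median -1.29). These are 6.25% and 10.9% of the list, beside 9.09% and 1.99% of all genes tested. Among genes with a mean of at least 5 CPM the shares were 16.3% and 12.9%. Sema3d, a secreted semaphorin, had 282 and 209 CPM against 1.82, 8.07 and 1.97 CPM (5.95 ± 0.70, adjusted p = 6.01e-06 in edgeR), whereas Sema3e of the same class had 18.5 and 19.9 CPM against 129, 97.3 and 204 CPM (-2.90 ± 0.52, adjusted p = 0.000345 in edgeR). Plxna2, a receptor for semaphorins, was lower by -2.80 ± 0.49, and the leucine-rich repeat gene Lrrn3 by -4.99 ± 0.92. The adhesion molecule Chl1 was higher by 2.86 ± 0.45. Lower calls numbered 4 and 3 without WT Lrig1 replicates 1 and 2.

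Genes of desmosomes and other junctions that were called were higher in Lrig1 cells with 1 exception, and those of the basement membrane were called in both directions. Of 44 desmosome and junction genes 15 were called higher and 1 lower (median 0.84), and 8 were called higher without WT Lrig1 replicate 2. Pkp1, a plaque protein of desmosomes, had 711 and 901 CPM against 113, 124 and 65.1 CPM (3.00 ± 0.37, adjusted p = 6.01e-06 in edgeR), and Dsg1a, a desmosomal cadherin, differed by 3.10 ± 0.47. The gap junction gene Gjb5 differed by 4.67 ± 0.64. The lower one was the claudin Cldn10, not called without WT Lrig1 replicate 1 or 2 (edgeR adjusted p = 0.159 and 0.150), nor without WT Lgr5 replicate 2 (0.0578). Among integrins Itga3, a laminin receptor chain, had 80.9 and 77.2 CPM against 12.2, 13.3 and 8.97 CPM (2.78 ± 0.42, adjusted p = 5.15e-05 in edgeR), and Itgb8, which activates TGF-beta, had 12.5 and 8.07 CPM against 102, 107 and 119 CPM (-3.41 ± 0.51, adjusted p = 5.42e-05 in edgeR). Over 25 integrin genes 3 were called higher and 1 lower (median -0.88), with 1 higher without WT Lrig1 replicate 1. The 3 higher and 1 lower integrin calls were 12% and 4% of that list, beside 9.09% and 1.99% of all genes tested. Of 35 hemidesmosome and basement membrane genes 6 were called higher and 4 lower (median -0.13), a balance that turned to 2 and 7 with RLE size factors and 0 and 10 at a minimum of 5 CPM. Only 1 was called higher without either Lrig1 library, so no direction is given for this list.

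Few genes of division were called, and WT Lgr5 replicate 3 stood apart from its group on them. Mean log2 CPM over 41 genes of G2 and mitosis was 4.09 and 3.43 in the Lrig1 libraries and 3.98, 4.02 and 1.89 in the Lgr5 libraries, and over 45 S phase genes it was 4.804 and 4.609 against 3.99, 4.41 and 2.76. Of the genes of G2 and mitosis 1 was called higher, Prc1 (2.65 ± 0.61), and it was not called without WT Lrig1 replicate 2 (edgeR adjusted p = 0.0655). That 1 call was 2.44% of the list, below the 9.09% of all genes tested. The median of the list was 0.07, beside -0.99 for all genes. Of the S phase genes 33 were higher in value, 5 were called higher and 0 lower (median 0.91), with 3 without WT Lrig1 replicate 2 and 12 without WT Lgr5 replicate 2. The 5 higher calls were 11.1% of the S phase genes, near the 9.09% of all genes tested. Gins2, of the replicative helicase, had 42.2 and 56.7 CPM against 1.96, 1.67 and 1.48 CPM (4.86 ± 0.57, adjusted p = 3.26e-06 in edgeR), and the nucleotide synthesis gene Tyms differed by 2.89 ± 0.49. Of 33 genes of quiescence and cell cycle inhibition 9 were called higher and 1 lower (median 0.56). Cdkn1a, the inhibitor p21, had 95.9 and 146 CPM against 4.60, 11.4 and 1.59 CPM (4.37 ± 0.54, adjusted p = 6.01e-06 in edgeR). Ccnd2, a cyclin that drives entry into the cycle, was higher too, with 623 and 405 CPM against 51.9, 40.8 and 16.02 CPM (3.83 ± 0.47, adjusted p = 5.32e-06 in edgeR), as was Trp53, which encodes p53 (3.20 ± 0.46). The lower one was Gas1, already given under Hedgehog.

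Housekeeping genes that were called were higher in Lrig1 cells, and in each group of them the library WT Lgr5 replicate 3 was the lowest. Of the 79 genes for cytosolic ribosomal proteins, 40 were called higher and 0 lower (median 1.495), 22 without WT Lgr5 replicate 3, 23 without WT Lrig1 replicate 1 and 10 without replicate 2. Their mean log2 CPM was 8.32 and 8.32 in the Lrig1 libraries and 7.25, 7.03 and 5.64 in the Lgr5 libraries. Of 75 nuclear genes of oxidative phosphorylation 54 were called higher (median 1.96), 30 without WT Lgr5 replicate 3, 35 without WT Lrig1 replicate 1 and 19 without replicate 2, and mean log2 CPM was 7.51 and 7.72 against 5.87, 5.99 and 4.44. Of 31 proteasome genes 26 were called higher (median 2.15), 12 without WT Lrig1 replicate 2, at 7.30 and 7.38 against 5.15, 5.41 and 4.07. The mean levels of the Lrig1 libraries exceeded those of the other 2 Lgr5 libraries on all 3 lists as well. Uqcrc2, a core subunit of respiratory complex III, had 190 and 110 CPM against 10.3, 16.1 and 12.1 CPM (3.54 ± 0.44, adjusted p = 6.60e-06 in edgeR). Psmc5, an ATPase of the proteasome, had 199 and 204 CPM against 21.3, 24.9 and 10.4 CPM (3.42 ± 0.40, adjusted p = 2.92e-06 in edgeR), and the ubiquitin gene Ubb had 20580 and 24010 CPM against 1918, 1105 and 349 CPM (4.31 ± 0.59, adjusted p = 1.95e-05 in edgeR). Of 15 genes of the mitochondrial genome 2 were called, mt-Co1 and mt-Co3, and neither without WT Lgr5 replicate 3 (edgeR adjusted p = 0.0580 and 0.206) or WT Lrig1 replicate 2 (0.0705 and 0.307); mt-Co3 was also lost with WT Lgr5 replicate 2 (0.0979) or WT Lrig1 replicate 1 (0.162) left out. Of 21 glycolysis genes 12 were called higher and 0 lower (median 2.12), 7 without WT Lrig1 replicate 2, with the aldolase Aldoa at 3.39 ± 0.42 and the enolase Eno1 at 4.23 ± 0.64. Of 36 cholesterol and fatty acid genes 10 were called higher and 0 lower (median 0.75), 6 and 4 higher without WT Lrig1 replicates 1 and 2, and 5 higher and 4 lower at a minimum of 5 CPM, with the sterol enzyme Hmgcs1 at 2.38 ± 0.41.

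Immediate early genes, which respond to cell isolation among other stimuli, were called more often higher than lower in control Lrig1 cells. Of 36 genes of that list 13 were called higher and 1 lower (median 1.10), 8 without WT Lrig1 replicate 2, and of 16 AP-1 factor genes 5 were called higher and 1 lower (median 1.14), 3 without WT Lgr5 replicate 3 or WT Lrig1 replicate 1 and 2 without WT Lrig1 replicate 2. Dusp1, a phosphatase that ends MAP kinase signals, had 1504 and 1353 CPM against 306, 205 and 124 CPM (2.76 ± 0.52, adjusted p = 0.000692 in edgeR). Atf3, a stress-induced factor, had 698 and 707 CPM against 46.1, 94.2 and 26.1 CPM (3.66 ± 0.75, adjusted p = 0.00223 in edgeR). The AP-1 subunit Fosl1 had 16.4 and 22.7 CPM against 0.676, 0.769 and 1.59 CPM (4.26 ± 0.80, adjusted p = 0.000657 in edgeR).  In Pelo -/- cells the same contrast gave medians of 0.05 for the first list, with 2 called higher and 3 lower, and 0.27 for the second, with 1 called higher. There Dusp1 had a value of 0.60 and Atf3 of 0.37 (edgeR adjusted p = 0.428 and 0.727). The difference between genotypes was not called for either gene (2.16 ± 0.69 and 3.30 ± 0.97, edgeR adjusted p = 0.842 and 0.791).

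Other cell types left few transcripts in either group. The 14 keratinocyte markers summed to 28560 and 28230 CPM in Lrig1 libraries and to 5590 to 8260 CPM in Lgr5 libraries, with 9 called higher. By contrast 14 melanocyte markers summed to 48.1 and 24.2 CPM against 110 to 149 CPM, with 1 called lower. That was Mitf, at 12.8 and 10.1 CPM against 40.3, 63.4 and 84.7 CPM (-2.46 ± 0.53), not called without WT Lrig1 replicate 1 or 2 (edgeR adjusted p = 0.0501 and 0.0852). The pigment gene Mlana was at 0 in both Lrig1 libraries. The 19 fibroblast and dermal papilla markers summed to 46.0 and 28.1 CPM against 69.6 to 122 CPM, with Thy1 called higher and Col1a2 and Fbln1 lower, and Dcn at 0 in both Lrig1 libraries. Col1a2 was not called without WT Lrig1 replicate 1 (edgeR adjusted p = 0.0583), nor Fbln1 without replicate 1 or 2 or WT Lgr5 replicate 2 (0.193, 0.108 and 0.0550). The 17 T-cell markers summed to 53.9 and 88.1 CPM against 26.5 to 37.5 CPM, with Thy1 called and Nkg7 and Tcrg-C1 at 0 in both Lrig1 libraries. The 15 Merkel and neural markers summed to 36.4 and 51.3 CPM against 14.48 to 31.4 CPM, in the Lrig1 libraries mostly from the myelin gene Mbp, called higher at 32.1 and 49.2 CPM against 3.45, 3.01 and 4.54 CPM (3.47 ± 0.57). Snap25 of that list was called lower, though not without WT Lrig1 replicate 1 or 2 (edgeR adjusted p = 0.0700 and 0.260). None of 15 endothelial and pericyte markers or 14 markers of blood, muscle and fat was called by edgeR, with 2 lower in each list at an unadjusted p under 0.05 and 2 higher in the latter, while DESeq2 called 8 and 3 lower and limma-voom 2 and 0. The part of these cells in the fold changes above was not tested.

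The same populations from Pelo -/- mice gave a comparison with no shared library. Both comparisons came from 1 fit that shares its estimate of spread per gene, so their calls are not independent. Control calls numbered 3182 to 3666 with 1 Pelo -/- Lrig1 or Lgr5 library left out. TMM factors separated these groups too, at 0.990, 1.35 and 1.59 in Lgr5 and 0.817, 0.876 and 0.964 in Lrig1 libraries. Total counts leaned the same way as in control cells, with overlap (10501324 to 17219054 against 13333497 to 22471651). So did olfactory and vomeronasal receptor genes (96.7, 366 and 599 against 69.7, 56.6 and 121 CPM without TMM). The part of these features in the agreement between genotypes was not tested. In the Pelo -/- comparison edgeR called 2386 genes (7.85%), 1753 higher in Lrig1 cells (5.77%) and 633 lower (2.08%). That count was 1550 without Pelo -/- Lgr5 replicate 2, and 1366 and 1476 without Pelo -/- Lrig1 replicates 1 and 2. Of the genes called higher in control cells 1450 were called higher there too, which is 52.4% of the control list and 82.7% of the Pelo -/- list. For lower calls the overlap was 241 genes, 39.9% and 38.1%. Not 1 gene was called in opposite directions. Of the genes called in control cells 98.7% of the higher and 95.0% of the lower had the same sign in Pelo -/- cells, with median log2 fold changes of 1.68 against 2.58 and -2.03 against -4.52. The genes were chosen by their control calls, so these medians are no test of a difference between genotypes. Over all genes tested the median was -0.64 in Pelo -/- and -0.99 in control cells, so most genes were lower in value in each. A shared negative sign therefore says less than a shared positive one, and the share over all genes was not computed. Lhx2, Ptn, Hmcn1, Wnt3, Bmp4, Il1rn and Ly6a were called in the same direction in both genotypes. Ly6d had 4143, 4461 and 2481 CPM in Pelo -/- Lrig1 cells against 20.3, 0.780 and 9.56 CPM in Pelo -/- Lgr5 cells, so the groups lay far apart there too (8.50 ± 0.85, adjusted p = 2.27e-06 in edgeR). Lgr5 itself was called in that comparison (-4.85, edgeR adjusted p = 0.0378), at 16.02, 29.4 and 6.23 CPM against 550, 467 and 476 CPM, and Lrig1 was not (0.55, edgeR adjusted p = 0.483), at 37.7, 7.42 and 11.6 CPM against 12.03, 16.7 and 10.1 CPM.

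**Figure D5:**
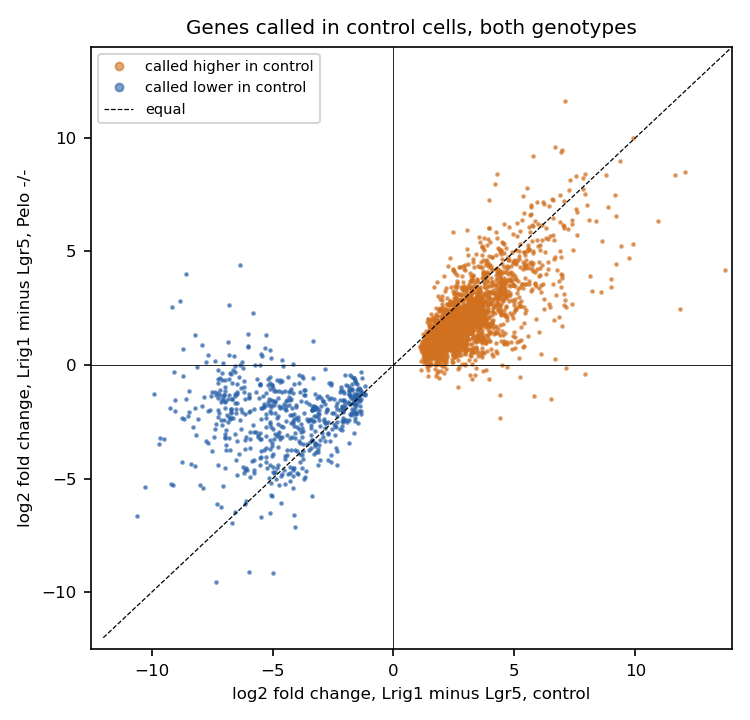
Each point is a gene called in control cells, with its log2 fold change, Lrig1 minus Lgr5, in control cells on the x axis and in Pelo -/- cells on the y axis; orange and blue mark genes called higher and lower in control cells, and the dashed line marks equal values. Most points share their sign (98.7% and 95.0%) and lie nearer to 0 in Pelo -/- cells, more so on the lower side.

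A direct test of whether the contrast differed between genotypes called 0 of 30405 genes (0.0%) in edgeR. At an unadjusted p under 0.05 there were 1613 genes, DESeq2 called 62 and limma-voom 0. The smallest adjusted p was 0.151, for Clic3, a chloride channel family gene, and Mtrr, which reactivates methionine synthase. Clic3 had 58.7 and 81.2 CPM in control Lrig1 cells against 2.10, 2.56 and 1.15 CPM in control Lgr5 cells (5.17 ± 0.63). In Pelo -/- cells it had 21.0, 50.8 and 19.2 CPM against 19.95, 11.98 and 12.02 CPM (1.05), a difference of 4.12 ± 0.78 between genotypes. Mtrr and the membrane protein gene Tm4sf1 had differences of 3.74 ± 0.74 and 4.19 ± 0.86 (edgeR adjusted p = 0.151 and 0.210). In the other direction the smallest p belonged to Kcnrg, Ttc30a2 and Fdxr (edgeR adjusted p = 0.637, 0.637 and 0.646).

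Control Lgr6 libraries, which enter no comparison here but share the fit's estimate of spread, had levels of Ly6d and Lhx2 nearer to the Lrig1 than to the Lgr5 libraries. In WT Lgr6 replicates 1, 2 and 3 Ly6d stood at 2875, 2544 and 5208 CPM and Lhx2 at 13, 54.0 and 18.4 CPM. Lgr6 expression itself, the receptor that names that sort, was 109 and 58.3 CPM in Lrig1 cells and 95.5, 103 and 17.7 CPM in Lgr5 cells, overlapping between them (0.21 ± 0.54, adjusted p = 0.782 in edgeR). Pelo, carried with 1 floxed copy in both groups, had 6.05 and 3.72 CPM against 17.4, 5.90 and 17.3 CPM and was not called (-1.47 ± 0.87, adjusted p = 0.254 in edgeR).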

How the data were processed

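RNA-seq of 17 libraries was deposited by the authors as whole-number counts per gene, without normalization, and was used as deposited. Per the submitters' processing notes, STAR and edgeR were used on GRCm38 (mm10); the sources used here do not give the counting tool, annotation release, strand setting or versions, and reads of a gene and its antisense partner cannot be told apart. Gene names were matched to GENCODE M21 on GRCm38, and promoter sequences come from RefSeq on GRCm38.p6.

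All 17 libraries entered 1 edgeR 4.0.16 quasi-likelihood fit (R 4.3.3) with TMM scaling and 1 coefficient per group. Genes were kept by filterByExpr (minimum count 10, minimum total 15), and calls were made at p under 0.05 after Benjamini-Hochberg adjustment over all 30405 genes. Standard errors were derived from the fold change and its F statistic. An exact permutation test of 2 against 3 libraries cannot go below p = 0.2 and was not used. The fit was tested on simulated data. Per-library totals are in the report; they set the precision of low genes.

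Genes named singly were, in each direction, the 15 called with the largest fold change and the 10 with the highest CPM, among those with at least 20 CPM in the higher group, groups that do not overlap and a call kept without each library. To these come up to 5 called members per direction of each of 50 lists (or 3 as values), 3 per direction for the difference between genotypes, and Lrig1, Lgr5, Lgr6, Ly6d, Lhx2 and Pelo. The gene groups and lists were chosen with earlier results of these data known. Trp63, Krt15, Cd34 and other genes outside the rule were named after their values were seen. Some genes that met the rule, and the promoter window of 1 leading gene, are not reported here. Alternatives were RLE size factors, other filters, thinning to 9647507 counts, removal of predicted and mitochondrial genes, DESeq2 1.42.0, limma-voom 3.58.1, only the 5 control libraries, a replicate block, and each library left out.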

Additional observations from a re-analysis of the deposited data

How the results depend on the processing

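Control Lrig1 and Lgr5 cells differed in 3369 genes by edgeR, in 7206 by DESeq2, in 2152 when only the 5 control libraries were fitted, and in 1294 to 3883 when each of the 5 was left out in turn. For Pelo -/- cells DESeq2 called 4475 genes, and leaving out 1 library gave 1366 to 2886. The difference between genotypes had 62 calls by DESeq2, 25 with no filter on low counts and 0 to 3 with 1 library left out. The share of calls that were higher in Lrig1 cells was 82.1%, and it was 38.9% by DESeq2, 55.9% at a minimum of 5 CPM, 69.1% with RLE size factors, 71.7% after thinning and 75.5% without predicted and mitochondrial genes; the cause was not tested.

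The Lrig1 and Lgr5 libraries come from different mouse lines, so replicate numbers do not pair animals. Deviations of same-numbered libraries from their group means correlated at -0.00217 and 0.0914 in control cells and between -0.0237 and 0.0541 in Pelo -/- cells. Deviations of the 2 control Lrig1 libraries mirror each other, so the 2 control values are not independent. Whether same-numbered libraries shared a batch was not tested. With the replicate number as a block the calls were 3117, 2342 and 0 for control cells, Pelo -/- cells and their difference. Over named genes and all alternatives, 5302 values kept direction and side of the threshold, 328 lost the call, 40 gained one and 0 reversed. List counts stayed within 1.5 times in 1741 cases and moved in 359. The fit at a minimum of 5 CPM without WT Lgr5 replicate 3 was added after seeing the data. The control Lgr5 libraries had fewer total counts but 21623, 16933 and 26220 genes with at least 10 counts. The control Lrig1 libraries had 16881 and 15152 such genes. Apart from thinning, the part of depth in genes of few counts was not tested.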
